A study of Mus musculus with 5 samples.

Results

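The mRNAs of 9 chromatin regulators, Ezh2, Eed, Suz12, Crebbp, Ep300, Hdac3, Kdm1a, Dot1l and Tet2, were followed in germinal centre light zone B cells of the mouse spleen. They were chosen by name from the 23234 genes of the expression table, as genes that germinal centre B cells need or that lymphomas of such cells mutate. All 9 were in the table, and 8 reached the level required for testing, which was set at 1 FPKM (fragments per kilobase of transcript, scaled to the fragments mapped in a library) in 2 or more of the 5 libraries. The remaining gene, Tet2, stayed under 1 FPKM in every library.

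The compared groups were 2 libraries labelled Csk(f/f) and 3 labelled Csk(+/+), which the series' design text calls biological replicates. CSK restrains Src family kinases such as LYN by phosphorylating a tyrosine in their tail. Donor B cells of both groups carried ERT2cre(KI/+), a Cre recombinase switched on by tamoxifen, and B1-8hi(KI/+), a knock-in heavy chain that binds the hapten NP, and were marked by CD45.1/2. The naive donor cells went into C57BL/6J hosts that received NP-CGG with alum on day 0 and tamoxifen on days 8 and 9, and NP-binding donor light zone cells were sorted on day 11. Both groups received tamoxifen, so they differ in the Csk allele, and the drug was given after the response had begun. Age and the number of mice behind a library are not given in the sources used here. The study asked how B cell receptor signalling bears on selection in the germinal centre.

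Germinal centre B cells alternate between a dark zone, where they divide and mutate their receptors, and a light zone, where they take up antigen and are selected by T cells. Polycomb repressive complex 2 (PRC2), built on EZH2, EED and SUZ12, methylates histone H3 at silenced promoters, and in germinal centre B cells it holds back cell cycle inhibitors and plasma cell genes. The acetyltransferases CREBBP and EP300 open enhancers that BCL6 with HDAC3, and KDM1A with its partners, close again. DOT1L methylates the core of histone H3 along transcribed genes, and TET2 oxidizes 5-methylcytosine.

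Depth, estimated from the spacing of low FPKM values, was about 23932000 and 9615000 fragments for the Csk(f/f) libraries and 16031000, 19632000 and 12050000 fragments for the Csk(+/+) libraries. All 12 listed markers of germinal centre B cells were at or above 1 FPKM in every library. They summed to 4688 and 4413 FPKM in Csk(f/f) libraries, against 3551, 4028 and 4784 FPKM in Csk(+/+) libraries, and these sums overlapped. Of the 12 markers 4 had positive and 8 negative log2 fold changes. At an unadjusted limma p under 0.05, 4 of the 12, Rgs13, Gcsam, Ms4a1 and Mybl1, were lower and 0 higher. Over all tested genes 13.6% were lower and 8.07% higher. The groups did not overlap for 7 markers in the lower and 2 in the higher direction, where 24.5% and 20.7% of all tested genes did so. After the GC correction described below, 3 markers were lower at an unadjusted limma p under 0.05, where 5.07% of genes were. Rgs13, a regulator of G protein signalling, had 26.8 and 15.5 FPKM in Csk(f/f) libraries, against 41.2, 38.9 and 73.9 FPKM in Csk(+/+) libraries (limma adjusted p = 0.155). The 7 T cell markers with values summed to 0.95 and 1.54 FPKM in Csk(f/f) libraries, against 1.42, 0.75 and 0.67 FPKM in Csk(+/+) libraries. Only 1 of them reached 1 FPKM, in Csk(f/f) replicate 2. Cd3e and Cd3g of this list, and Mertk of the macrophage list, were at 0 in all 5 libraries. In each library 4 of 6 plasma cell markers reached 1 FPKM. That list summed to 784 and 697 FPKM in Csk(f/f) libraries, against 617, 638 and 940 FPKM in Csk(+/+) libraries. Among 8 macrophage markers Cd68 and Lyz2 reached 1 FPKM, and the list summed to 24.4 and 24.4 FPKM in Csk(f/f) libraries, against 16.9, 21.5 and 12.4 FPKM in Csk(+/+) libraries. Naive B cell markers summed to 450 and 504 FPKM in Csk(f/f) libraries, against 372, 421 and 380 FPKM in Csk(+/+) libraries, and most of this was Fcer2a, at 423 and 477 FPKM in Csk(f/f) and 347, 391 and 359 FPKM in Csk(+/+). The macrophage and naive sums were both higher in every Csk(f/f) library. Cr2 of the naive list went the other way, at 11.6 and 11.1 FPKM in Csk(f/f) and 17.5, 22.4 and 14.3 FPKM in Csk(+/+). Of the 4 tested naive markers 3 were higher and 1 lower, all without overlap, where 45.1% of all tested genes did not overlap. At an unadjusted limma p under 0.05, 2 were higher and 1 lower, where 8.07% and 13.6% of all tested genes were. The 4 had a median log2 fold change of 0.60, and of 0.38 after the GC correction. By limma 0 passed, with a smallest adjusted p of 0.128. Erythroid markers, all 5 tested, summed to 381 and 101 FPKM in Csk(f/f) libraries, against 142, 793 and 399 FPKM in Csk(+/+) libraries. These sums overlapped, all 5 genes had negative log2 fold changes, and 0 passed by limma after adjustment. The part of any of these markers in the results was not tested. Csk itself measured 453 and 476 FPKM in those labelled Csk(f/f), against 378, 436 and 415 FPKM in Csk(+/+), so its mRNA was not lower where deletion was intended. The floxed exons are not given in the sources used here, and 1 value per gene leaves the deletion unchecked. Csk(+/+) replicate 3 stood apart from the others, with a library weight of 0.259 in limma against 1.35 to 1.55 for the rest. Genes with transcripts of at least 6000 nt had a median log2 deviation of -0.17 in that library, where Csk(f/f) libraries had -0.088 and -0.11 and Csk(+/+) replicates 1 and 2 had 0.19 and 0.18.

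The 3 core PRC2 genes are the ones whose values did not overlap between the groups among the 8 tested. All 3 were lower in Csk(f/f) libraries, where 24.5% of all tested genes were lower without overlap. The promoters of the 3 genes are shown because these genes had lower values together. Each line gives the RefSeq sequence of build GRCm38.p6, 5′ to 3′ on the strand of the gene, from 250 bases before the transcription start to 50 after it. Capitals mark matches to an E2F motif (TTTCCCGC, TTTCGCGC, TTTGCCGC or TTTGGCGC) or to a CCAAT box (CCAAT), each searched on both strands (ATTGG is CCAAT on the other strand), and no marked matches overlap.
Ezh2, chr6:47594981-47595280, minus strand: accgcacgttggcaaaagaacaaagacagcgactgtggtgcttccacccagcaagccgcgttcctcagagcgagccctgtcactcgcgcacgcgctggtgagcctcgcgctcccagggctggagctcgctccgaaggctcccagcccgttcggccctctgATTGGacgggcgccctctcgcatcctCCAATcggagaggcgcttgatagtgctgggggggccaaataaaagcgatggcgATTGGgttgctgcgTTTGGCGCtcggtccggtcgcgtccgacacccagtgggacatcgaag
Eed, chr7:89980927-89981226, minus strand: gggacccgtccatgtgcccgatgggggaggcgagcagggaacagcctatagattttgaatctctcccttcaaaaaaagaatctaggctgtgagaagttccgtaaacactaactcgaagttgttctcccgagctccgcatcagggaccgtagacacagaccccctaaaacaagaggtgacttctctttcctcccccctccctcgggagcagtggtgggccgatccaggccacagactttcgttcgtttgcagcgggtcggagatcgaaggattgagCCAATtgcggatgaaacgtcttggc
Suz12, chr11:79992856-79993155, plus strand: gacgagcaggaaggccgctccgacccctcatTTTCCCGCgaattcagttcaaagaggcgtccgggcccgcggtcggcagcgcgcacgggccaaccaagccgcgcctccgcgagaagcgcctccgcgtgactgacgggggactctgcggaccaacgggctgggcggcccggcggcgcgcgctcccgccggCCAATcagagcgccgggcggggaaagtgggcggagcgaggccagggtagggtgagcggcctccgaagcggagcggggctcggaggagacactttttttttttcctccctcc
E2F proteins switch on genes of DNA replication, and an E2F motif occurred once in the Ezh2 promoter (TTTGGCGC) and once in that of Suz12 (TTTCCCGC). These were the only E2F matches among the 8 regulators with a promoter window. Among all 32851 RefSeq promoter windows of this length, 2.27% held one. That share is over windows of any GC content, and the Ezh2 and Suz12 windows have 64.3% and 71.0% GC. The Eed window held none of these 4 sequences. CCAAT boxes, which the factor NF-Y binds, numbered 3 in the Ezh2 promoter, 1 in that of Eed and 1 in that of Suz12. The window of Kdm1a, for which the groups overlapped, also held 1, and 37.4% of all windows held at least 1. A match describes letters in the window and says nothing about binding in these cells.

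Ezh2 encodes the catalytic methyltransferase of PRC2. It had 31.6 and 25.1 FPKM in the Csk(f/f) libraries, against 55.2, 38.8 and 55.6 FPKM in the Csk(+/+) libraries. Both Csk(f/f) values lay below the lowest Csk(+/+) value, which was that of replicate 2. The means were 28.4 ± 4.60 FPKM in Csk(f/f) (SD, n = 2) and 49.9 ± 9.60 FPKM in Csk(+/+) (SD, n = 3), and the log2 fold change of FPKM + 1 was -0.78 ± 0.20 (SE). By limma over all 10242 tested genes the unadjusted p was 0.00459 and the Benjamini-Hochberg adjusted p 0.154, so Ezh2 did not pass the threshold of 0.05.

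Eed encodes the subunit that reads the methyl mark PRC2 itself deposits. It had 36.7 and 44.6 FPKM in Csk(f/f) libraries, against 69.4, 60.4 and 50.6 FPKM in Csk(+/+) libraries. The groups were again apart, with the smallest gap to Csk(+/+) replicate 3. The log2 fold change was -0.55 ± 0.17 (SE), with a limma adjusted p of 0.171. Without Csk(+/+) replicate 3 Eed passed, at a log2 fold change of -0.67 and a limma adjusted p of 0.0471. In that fit 411 of 10147 tested genes passed, against 8 of 10242 with all libraries.

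Suz12 encodes the scaffold subunit that holds the complex together. It had 15.4 and 10.5 FPKM in Csk(f/f) libraries, against 20.01, 19.9 and 23.0 FPKM in Csk(+/+) libraries. Csk(f/f) replicate 2 had the lowest value, and the 3 Csk(+/+) libraries lay close together. The log2 fold change was -0.68 ± 0.19 (SE), with a limma adjusted p of 0.161.

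**Figure D1:**
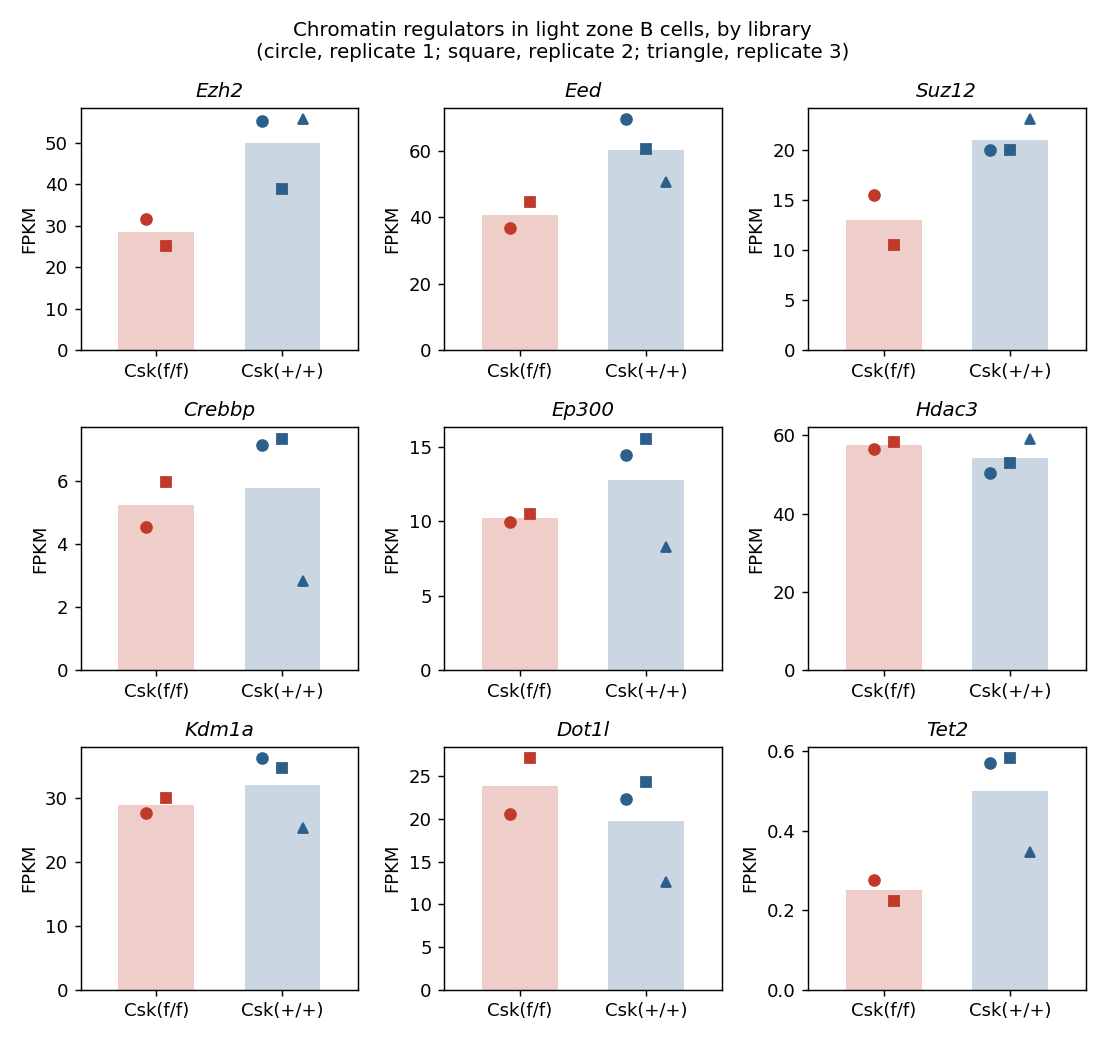
FPKM of the 9 chromatin regulators (vertical axes, each starting at 0) in the Csk(f/f) libraries, left in each panel, and the Csk(+/+) libraries, right, with 1 point per library and bars at the group mean. For Ezh2, Eed, Suz12 and Tet2 both Csk(f/f) points lie below all 3 Csk(+/+) points, and Csk(+/+) replicate 3 (triangle) is the lowest point for Crebbp, Ep300, Kdm1a and Dot1l.

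Summed over the 3 genes, the PRC2 core had 83.8 and 80.2 FPKM in Csk(f/f) libraries, against 145, 119 and 129 FPKM in Csk(+/+) libraries. In bulk samples, fewer cells expressing a gene and less RNA per cell cannot be told apart. The proportions of the 3 mRNAs overlapped between the groups, with an Ezh2 to Suz12 ratio of 2.05 and 2.40 in Csk(f/f) libraries and 2.76, 1.95 and 2.42 in Csk(+/+) libraries. The Ezh2 to Eed ratio was 0.863 and 0.563 in Csk(f/f) libraries and 0.795, 0.643 and 1.10 in Csk(+/+) libraries.

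Of the 8 tested regulators, 0 passed at a limma adjusted p under 0.05, where 0.0781% of all tested genes passed. At an unadjusted p under 0.05, 3 of 8 were lower in Csk(f/f) libraries and 0 higher, and those 3 were the PRC2 core genes, where 13.6% of all tested genes were lower, 8.07% higher and 21.7% either. The groups did not overlap for 3 of 8, all lower, where 24.5% of all tested genes had lower values that did not overlap, 20.7% higher ones and 45.1% either. Without Csk(+/+) replicate 3, 5 of 8 were lower at an unadjusted p under 0.05, with Ep300 and Kdm1a added, where 21.4% of all tested genes were. The 8 regulators had a median log2 fold change of -0.19, and all tested genes one of -0.012.

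Transcript GC content moved with these differences. Ezh2, Eed and Suz12 have a GC content of 44.4%, 47.8% and 41.6% over their longest annotated transcript, and Dot1l has 57.5%. The median log2 fold change of the 969 tested genes within 1 percentage point of the GC content of Ezh2 was -0.31, with quartiles at -0.47 and -0.12, and Ezh2 at -0.78 lay below both. Eed, at -0.55, lay below the quartiles of its 1077 like genes, which were -0.30 and 0.055. Suz12, at -0.68, also lay below its own, -0.58 and -0.21 over 739 genes. This was not particular to the PRC2 genes. Ep300, at -0.25, lay below its lower quartile of -0.085, and Kdm1a, at -0.13, below its own of -0.036. Crebbp, at -0.0393, lay barely below its own of -0.0385. Hdac3, at 0.087, lay above its upper quartile of 0.018, and Dot1l lay between its quartiles. After the GC trend was subtracted from each library, the log2 fold changes were -0.49 ± 0.19 (SE) for Ezh2, -0.43 ± 0.14 for Eed and -0.27 ± 0.16 for Suz12. Their limma adjusted p-values were then 0.469, 0.430 and 0.622. Ep300 had -0.32 ± 0.21 (SE) after this correction, with a limma adjusted p of 0.671. Ezh2 and Eed kept an unadjusted limma p under 0.05 in the lower direction (0.0348 and 0.0160), where 5.07% of the 10118 genes with a GC value did so, and 9.96% in either direction. The part of GC content in these differences was not tested further.

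**Figure D2:**
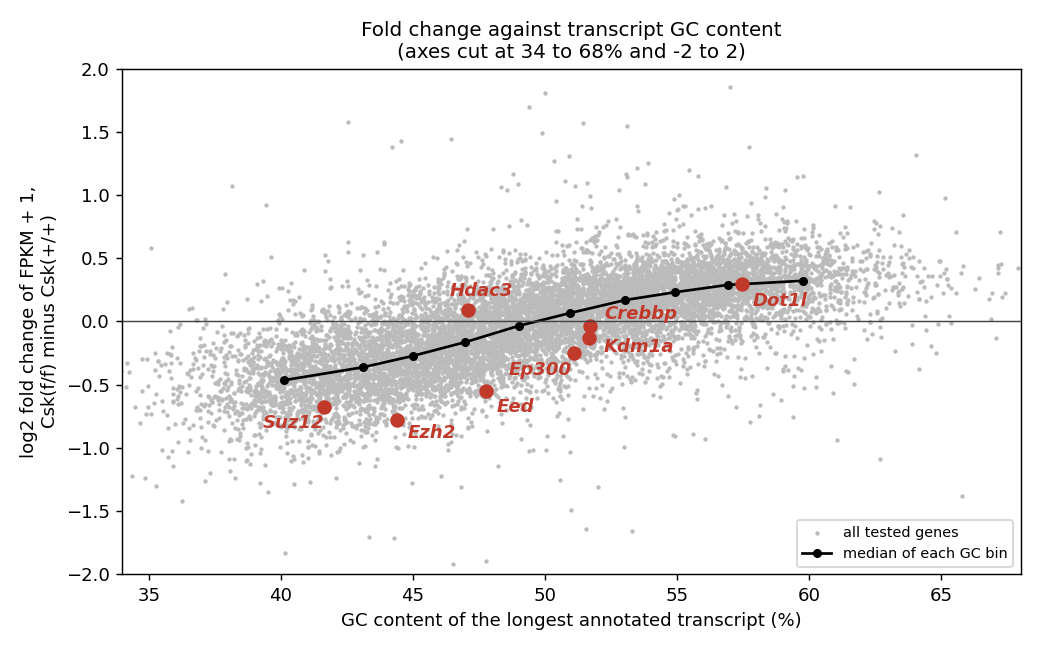
Log2 fold change of FPKM + 1, Csk(f/f) minus Csk(+/+) (vertical axis), against the GC content of the longest annotated transcript in percent (horizontal axis), with 1 grey dot per tested gene, a black line through the median of each GC bin and the 8 tested regulators in red. The bin medians run from -0.46 under 42% GC to 0.32 at 58% and above. Ezh2, Eed, Suz12, Ep300, Kdm1a and Crebbp lie below the line, Hdac3 lies above it and Dot1l on it.

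Among the 8 listed partners of PRC2, all tested, 0 passed by limma and 1 was lower at an unadjusted p under 0.05, where 13.6% of all tested genes were. That gene was Mtf2, which guides PRC2 to CpG islands, with 9.80 and 6.43 FPKM in Csk(f/f) libraries against 14.9, 12.2 and 13.4 FPKM in Csk(+/+) libraries (log2 fold change -0.69, limma adjusted p = 0.169, and -0.18 after the GC correction). The histone binding subunit gene Rbbp7 averaged 134 ± 12.5 FPKM in Csk(f/f) libraries and 168 ± 17.96 FPKM in Csk(+/+) libraries (SD, n = 2 and n = 3). Its paralogue Rbbp4 averaged 116 FPKM in Csk(f/f) and 114 FPKM in Csk(+/+) libraries. Jarid2, a cofactor that tethers PRC2, had 3.56 and 4.36 FPKM in Csk(f/f) libraries, against 8.41, 8.29 and 3.89 FPKM in Csk(+/+) libraries, where replicate 3 lay among the Csk(f/f) values.

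Ezh1, the paralogue of Ezh2 that prevails in resting cells, had 7.11 and 9.35 FPKM in Csk(f/f) libraries, against 7.87, 7.84 and 5.67 FPKM in Csk(+/+) libraries. Ezh2 mRNA thus exceeded Ezh1 mRNA per length in all 5 libraries, by 4.45 and 2.69 times in Csk(f/f) and by 7.01, 4.95 and 9.81 times in Csk(+/+). This ratio does not depend on the scaling of a library. It was lower in both Csk(f/f) libraries than in any Csk(+/+) library, and the mean log2 ratio differed by -1.01. A two-sided exact permutation test gave p = 0.2, and 0.3 after adjustment over the 3 ratios tested, where the smallest p possible is 0.1. With the GC correction the difference of the log2 ratios was -0.64 (two-sided exact permutation p = 0.3).

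The demethylases that remove the PRC2 mark were low in level. Kdm6a had 3.99 ± 0.349 FPKM in Csk(f/f) and 5.54 ± 0.455 FPKM in Csk(+/+) libraries (SD, n = 2 and n = 3), and Kdm6b had 6.94 ± 1.20 FPKM in Csk(f/f) and 5.93 ± 2.34 FPKM in Csk(+/+) libraries. Neither passed by limma, with adjusted p-values of 0.260 and 0.651. Of the 20 tested genes of PRC1 and the BCOR complex, which read the PRC2 mark or bind BCL6, 0 passed by limma, while 3 had an unadjusted p under 0.05 in the higher and 5 in the lower direction, where 8.07% and 13.6% of all tested genes had one. Ring1, a ubiquitin ligase subunit, averaged 27.3 FPKM in Csk(f/f) and 19.8 FPKM in Csk(+/+) libraries. Phc2, which helps PRC1 cluster, averaged 123 FPKM in Csk(f/f) and 90.5 FPKM in Csk(+/+) libraries, and Pcgf6, a subunit of a variant PRC1, 8.41 FPKM in Csk(f/f) and 11.9 FPKM in Csk(+/+) libraries. After the GC correction 0 of the 20 had an unadjusted limma p under 0.05, where 9.96% of all genes with a GC value had one.

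Crebbp encodes an acetyltransferase often mutated in germinal centre lymphomas. It had 4.54 and 5.96 FPKM in Csk(f/f) libraries, against 7.15, 7.34 and 2.82 FPKM in Csk(+/+) libraries. The groups overlapped because Csk(+/+) replicate 3 was the lowest of all 5. The log2 fold change was -0.039 ± 0.36 (SE), and its 95% confidence interval spans folds of 0.548 to 1.73. Without that library it was -0.41 (limma adjusted p = 0.151). Its sign turned, at 0.093, under quantile normalization.

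Ep300, the paralogue of Crebbp, had 9.98 and 10.5 FPKM in Csk(f/f) libraries, against 14.5, 15.6 and 8.28 FPKM in Csk(+/+) libraries. The same library was lowest. The log2 fold change was -0.25 ± 0.26 (SE, limma adjusted p = 0.588, 95% confidence interval of the fold 0.550 to 1.29), and -0.51 without Csk(+/+) replicate 3 (limma adjusted p = 0.0674). The transcripts of Crebbp and Ep300 are long, at 10820 and 9566 nt, and long transcripts as a class were low in that library. Their part in the spread of these 2 genes was not tested.

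Ep300 mRNA exceeded Crebbp mRNA in every library. The Crebbp to Ep300 ratio was 0.455 and 0.568 in Csk(f/f) libraries, against 0.495, 0.472 and 0.341 in Csk(+/+) libraries. The groups overlapped, and the mean log2 ratio differed by 0.24 (two-sided exact permutation p = 0.6, and 0.6 adjusted over the 3 ratios).

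Among the 12 tested genes of the list of other acetyltransferases and coactivators, 0 passed by limma, and at an unadjusted p under 0.05 there was 1 in each direction, where 8.07% of all tested genes were higher and 13.6% lower. Hat1, which acetylates newly made histone H4, had 44.3 and 39.7 FPKM in Csk(f/f) libraries, against 68.5, 60.5 and 72.4 FPKM in Csk(+/+) libraries (log2 fold change -0.66, limma adjusted p = 0.150). Kat2a, the acetyltransferase of the SAGA coactivator, was on the other side, with 34.02 and 41.1 FPKM in Csk(f/f) libraries, against 27.02, 28.5 and 21.2 FPKM in Csk(+/+) libraries (log2 fold change 0.54, limma adjusted p = 0.176). After the GC correction the log2 fold changes were -0.36 for Hat1 and 0.25 for Kat2a. Cited2, which binds both CREBBP and EP300, averaged 28.0 FPKM in Csk(f/f) and 35.6 FPKM in Csk(+/+) libraries. Its log2 fold change was -0.33 as deposited and -0.55 after the GC correction (limma adjusted p = 0.232 and 0.419). After this correction 2 of the 12 were lower and 0 higher at an unadjusted limma p under 0.05. Of all genes with a GC value 5.07% were lower and 9.96% either.

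The KMT2 complexes write the methyl mark of active enhancers and promoters, beside the acetyltransferases. Of 13 tested genes 0 passed by limma and 1 was higher at an unadjusted p under 0.05, Cxxc1, a CpG island reader, with 59.5 FPKM in Csk(f/f) and 43.3 FPKM in Csk(+/+) libraries (limma adjusted p = 0.195), where 8.07% of all tested genes were. The row 2900092E17Rik, listed for Pagr1a, averaged 55.3 FPKM in Csk(f/f) and 44.7 FPKM in Csk(+/+) libraries, and the scaffold gene Wdr5 38.8 FPKM in Csk(f/f) and 32.5 FPKM in Csk(+/+) libraries. The row named Mll2, an older name that is also used for the gene listed separately as Wbp7, had 7.77 and 13.2 FPKM in Csk(f/f) libraries, against 10.7, 11.6 and 2.67 FPKM in Csk(+/+) libraries. Csk(+/+) replicate 3 was the lowest library there too.

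Hdac3 encodes a deacetylase that works in corepressor complexes, through which BCL6 silences enhancers. It had 56.6 and 58.4 FPKM in Csk(f/f) libraries, against 50.5, 53.0 and 59.2 FPKM in Csk(+/+) libraries. It was the steadiest of the 8 tested regulators over the 5 libraries, with a root mean square deviation of 0.086 on the log2 scale, against 0.44 for Ezh2. The fold on the log scale was 1.06, with a 95% confidence interval of 0.863 to 1.31 (limma adjusted p = 0.6998).

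The 7 tested partners of HDAC3 had a median log2 fold change of -0.29, and of -0.13 after the GC correction. By limma 0 passed and 2 were lower at an unadjusted p under 0.05, where 13.6% of all tested genes were. These were Cops2, a corepressor of nuclear receptors that is also a signalosome subunit, with 7.84 ± 3.04 FPKM in Csk(f/f) and 12.7 ± 1.67 FPKM in Csk(+/+) libraries (SD, n = 2 and n = 3), and Zbtb33, a methyl-DNA binding repressor, with 2.67 ± 1.49 FPKM in Csk(f/f) and 4.47 ± 0.249 FPKM in Csk(+/+) libraries. Ncor1, a corepressor that binds HDAC3, averaged 17.3 FPKM in Csk(f/f) and 21.3 FPKM in Csk(+/+) libraries (limma adjusted p = 0.339).

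Among the other class I and II deacetylases, 10 were tested and 0 passed by limma. Hdac2 averaged 15.2 ± 0.973 FPKM in Csk(f/f) and 24.5 ± 3.51 FPKM in Csk(+/+) libraries (SD, n = 2 and n = 3), with a log2 fold change of -0.65 and a limma adjusted p of 0.155. Hdac5 averaged 15.6 ± 0.808 FPKM in Csk(f/f) and 9.97 ± 1.41 FPKM in Csk(+/+) libraries, with a log2 fold change of 0.60 and a limma adjusted p of 0.164. After the GC correction these log2 fold changes were -0.25 and 0.28. Hdac9 averaged 4.39 FPKM in Csk(f/f) and 5.98 FPKM in Csk(+/+) libraries (limma adjusted p = 0.301).

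Kdm1a encodes LSD1, a demethylase that works with CoREST and that BCL6 recruits. It had 27.7 and 30.0 FPKM in Csk(f/f) libraries, against 36.2, 34.7 and 25.3 FPKM in Csk(+/+) libraries. Both Csk(f/f) values lay between Csk(+/+) replicate 3 and the other Csk(+/+) libraries. The fold on the log scale was 0.913, with a 95% confidence interval of 0.682 to 1.22 (limma adjusted p = 0.680), and without Csk(+/+) replicate 3 the log2 fold change was -0.29 in place of -0.13 (limma adjusted p = 0.139).

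Of 10 tested CoREST partners 0 passed by limma and 1 was lower at an unadjusted p under 0.05, where 13.6% of all tested genes were. This was Rcor3, with 0.974 and 0.482 FPKM in Csk(f/f) libraries, against 2.00, 1.52 and 2.51 FPKM in Csk(+/+) libraries (limma adjusted p = 0.161). Rcor1, its more abundant paralogue, had 6.05 and 5.17 FPKM in Csk(f/f) libraries, against 10.7, 9.15 and 5.94 FPKM in Csk(+/+) libraries. Zmym2, a zinc finger partner, averaged 2.39 FPKM in Csk(f/f) and 3.36 FPKM in Csk(+/+) libraries. In the NuRD and SIN3 corepressors, with 13 genes tested and 0 passing by limma, the methyl-DNA reader Mbd2 averaged 83.3 ± 7.35 FPKM in Csk(f/f) and 113 ± 12.3 FPKM in Csk(+/+) libraries (SD, n = 2 and n = 3). Its log2 fold change was -0.43 as deposited and -0.70 after the GC correction (limma adjusted p = 0.177 and 0.307). Mbd3 and Gatad2a, both NuRD subunits, lay on the other side. Mbd3 averaged 154.9 FPKM in Csk(f/f) and 130.5 FPKM in Csk(+/+) libraries without overlap, and Gatad2a 41.1 FPKM in Csk(f/f) and 33.4 FPKM in Csk(+/+) libraries with overlap. Of the 13 genes 7 had positive and 6 negative log2 fold changes.

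Dot1l had 20.6 and 27.1 FPKM in Csk(f/f) libraries, against 22.4, 24.3 and 12.6 FPKM in Csk(+/+) libraries. The groups overlapped, and Csk(+/+) replicate 3 was again lowest. The log2 fold change was 0.30 ± 0.28 (SE, limma adjusted p = 0.539, 95% confidence interval of the fold 0.781 to 1.93). It was 0.016 without that library, 0.0055 with the GC correction, and -0.22 with both. Among 10 tested partners of DOT1L 0 passed by limma, and Mllt1, a reader of acetylated histones in the elongation machinery, was higher at an unadjusted p under 0.05 (8.07% of all tested genes were), with 28.6 ± 1.09 FPKM in Csk(f/f) and 19.2 ± 3.57 FPKM in Csk(+/+) libraries (SD, n = 2 and n = 3, limma adjusted p = 0.176). Ell, an elongation factor gene, averaged 11.9 FPKM in Csk(f/f) and 9.27 FPKM in Csk(+/+) libraries. Mllt10, a cofactor that stimulates DOT1L, averaged 6.24 FPKM in Csk(f/f) and 8.53 FPKM in Csk(+/+) libraries.

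**Figure D3:**
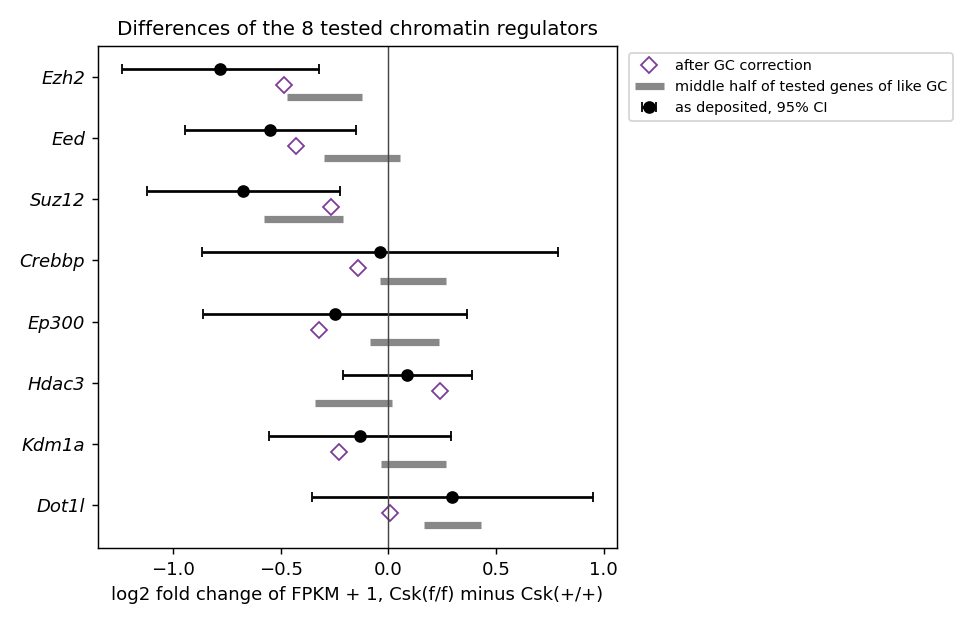
Log2 fold change of FPKM + 1, Csk(f/f) minus Csk(+/+) (horizontal axis), of the 8 tested regulators as deposited with 95% confidence intervals (black circles) and after the GC correction (open diamonds), with a grey bar between the quartiles of tested genes of like GC content. The intervals of Ezh2, Eed and Suz12 lie below 0 and those of the other 5 include 0.

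Tet2 was barely detected. It had 0.276 and 0.224 FPKM in Csk(f/f) libraries, against 0.569, 0.582 and 0.345 FPKM in Csk(+/+) libraries, which at the estimated depths corresponds to about 61 and 20 fragments in Csk(f/f) and 84, 105 and 38 in Csk(+/+). Both Csk(f/f) values were below all 3 Csk(+/+) values. In a fit without a filter on low values, over 16516 genes, the log2 fold change of FPKM + 1 was -0.26 ± 0.09 (SE, limma adjusted p = 0.315), a scale that understates differences of genes this low.

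Tet3 was the main TET mRNA of these cells, with 6.08 and 8.85 FPKM in Csk(f/f) libraries, against 10.7, 10.8 and 4.42 FPKM in Csk(+/+) libraries, while Tet1 stayed under 0.1 FPKM in all 5. The Tet2 to Tet3 ratio was 0.0454 and 0.0253 in Csk(f/f) libraries, against 0.0531, 0.0540 and 0.0782 in Csk(+/+) libraries. Both Csk(f/f) ratios were the lowest. The mean log2 ratio differed by -0.84, with a two-sided exact permutation p of 0.1, the smallest it can give, and 0.3 after adjustment over the 3 ratios. With 1 added to both FPKM values the difference was -0.14 (two-sided exact permutation p = 0.8). With the GC correction it was -0.42 (two-sided exact permutation p = 0.5).

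In the DNA methylation list 13 genes were tested, 0 passed by limma, and Mbd4, a glycosylase that repairs deaminated methylcytosine, was lower at an unadjusted p under 0.05, where 13.6% of all tested genes were. It averaged 15.4 ± 0.961 FPKM in Csk(f/f) and 22.7 ± 1.64 FPKM in Csk(+/+) libraries (SD, n = 2 and n = 3, limma adjusted p = 0.155). The maintenance methyltransferase gene Dnmt1 averaged 127 FPKM in Csk(f/f) and 133 FPKM in Csk(+/+) libraries, and its partner Uhrf1 159 FPKM in Csk(f/f) and 153 FPKM in Csk(+/+) libraries. Neither passed by limma, with adjusted p-values of 0.850 and 0.807. Idh1, whose product supplies the TET cofactor, averaged 2.62 FPKM in Csk(f/f) and 3.80 FPKM in Csk(+/+) libraries, and the glycosylase gene Tdg 8.60 FPKM in Csk(f/f) and 11.8 FPKM in Csk(+/+) libraries.

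Across all 15 lists of other chromatin genes, 171 genes were tested and 0 passed by limma, the smallest adjusted p being the 0.150 of Hat1. At an unadjusted p under 0.05, 17 (9.94%) were lower and 11 (6.43%) higher, against 13.6% and 8.07% of all tested genes. Their median log2 fold change was -0.045, and -0.066 after the GC correction. The SWI/SNF remodellers, with 21 tested, had a median of -0.0081, with Smarcd2 at 174 FPKM in Csk(f/f) and 135 FPKM in Csk(+/+) libraries, Smarcd1 at 28.1 FPKM in Csk(f/f) and 20.5 FPKM in Csk(+/+) libraries, and Brd7 at 28.5 FPKM in Csk(f/f) and 36.1 FPKM in Csk(+/+) libraries. Among 12 other lysine demethylases Kdm5a averaged 4.65 FPKM in Csk(f/f) and 6.85 FPKM in Csk(+/+) libraries and Kdm4b 14.6 FPKM in Csk(f/f) and 10.04 FPKM in Csk(+/+) libraries. Kdm1b, the paralogue of Kdm1a, averaged 4.44 FPKM in Csk(f/f) and 7.25 FPKM in Csk(+/+) libraries, without overlap.

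Among 15 other lysine methyltransferases 11 had negative log2 fold changes, with a median of -0.26, and of -0.078 after the GC correction. Ash1l averaged 1.94 FPKM in Csk(f/f) and 3.05 FPKM in Csk(+/+) libraries (log2 fold change -0.47, limma adjusted p = 0.227), and Whsc1, also called Nsd2, 22.7 FPKM in Csk(f/f) and 30.01 FPKM in Csk(+/+) libraries (-0.37, limma adjusted p = 0.249). Ehmt2, also called G9a, lay on the other side, at 101 FPKM in Csk(f/f) and 77.1 FPKM in Csk(+/+) libraries (0.39, limma adjusted p = 0.199). The groups did not overlap for any of these 3, which were named for having the smallest p of the list. Of all 15, 2 were higher and 3 lower without overlap, where 20.7% and 24.5% of all tested genes were. Of 5 tested linker histone genes, Hist1h1b had 0.577 and 0.612 FPKM in Csk(f/f) libraries, against 0.989, 1.90 and 3.47 FPKM in Csk(+/+) libraries (limma adjusted p = 0.201). Hist1h1c averaged 4.51 FPKM in Csk(f/f) and 3.55 FPKM in Csk(+/+) libraries, and H1fx 86.2 FPKM in Csk(f/f) and 80.5 FPKM in Csk(+/+) libraries.

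**Figure D4:**
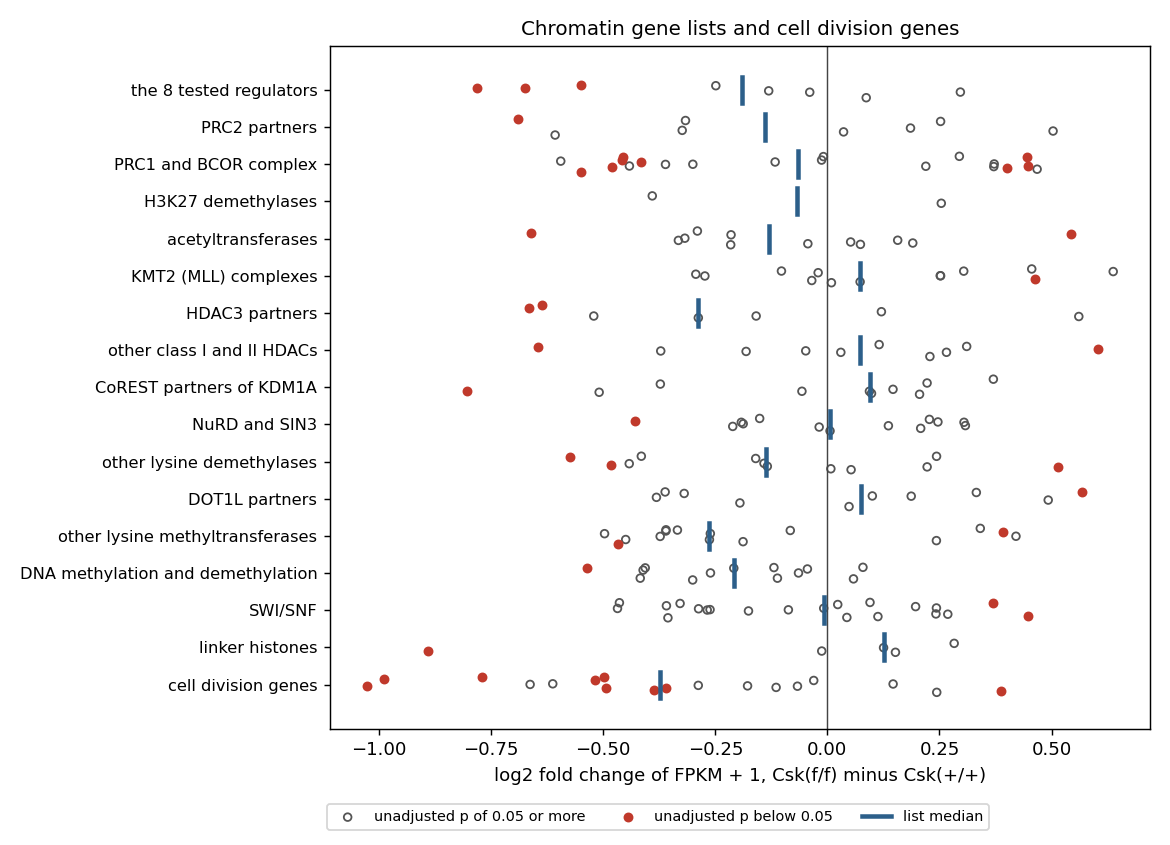
Log2 fold change of FPKM + 1, Csk(f/f) minus Csk(+/+) (horizontal axis), of each tested gene in the chromatin gene lists and in a list of cell division genes, 1 row per list, with the list median as a blue line and filled red points for an unadjusted limma p under 0.05. The 3 red points among the 8 regulators are Ezh2, Suz12 and Eed, the 15 lists of other chromatin genes have medians from -0.29 to 0.13, and the cell division list has a median of -0.37.

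Ezh2 and the other PRC2 core genes are known to be high in dividing cells, so cell division genes are given beside them. Of 18 tested, 0 passed by limma, while 8 had an unadjusted p under 0.05 in the lower direction and 1 in the higher, where 13.6% and 8.07% of all tested genes had one, and the median log2 fold change was -0.37, or -0.23 after the GC correction. Kif11, a mitotic kinesin, had 10.4 and 5.88 FPKM in Csk(f/f) libraries, against 17.9, 14.8 and 18.7 FPKM in Csk(+/+) libraries. Top2a, the topoisomerase of dividing cells, had 59.0 and 38.5 FPKM in Csk(f/f) libraries, against 80.6, 75.2 and 91.3 FPKM in Csk(+/+) libraries. Bub1, a mitotic checkpoint kinase, averaged 3.10 FPKM in Csk(f/f) and 7.16 FPKM in Csk(+/+) libraries. The replication genes of this list did not share one direction, since Pcna averaged 334 FPKM in Csk(f/f) and 479 FPKM in Csk(+/+) libraries and Mcm2 162 FPKM in Csk(f/f) and 137 FPKM in Csk(+/+) libraries. Median deviations of the list were -0.12 and -0.22 on the log2 scale in Csk(f/f) libraries, against 0.12, 0.073 and 0.17 in Csk(+/+) libraries. The part of cell division in the PRC2 values was not tested.

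By mean FPKM in Csk(f/f) libraries the order of the regulators was Hdac3 (57.5), Eed (40.7), Kdm1a (28.9), Ezh2 (28.4), Dot1l (23.8), Suz12 (12.97), Ep300 (10.2), Crebbp (5.25) and Tet2 (0.250). In Csk(+/+) libraries it was Eed (60.1), Hdac3 (54.2), Ezh2 (49.9), Kdm1a (32.1), Suz12 (21.0), Dot1l (19.8), Ep300 (12.8), Crebbp (5.77) and Tet2 (0.499). Among neighbours in these orders the ranges overlapped for Kdm1a with Ezh2 and Ezh2 with Dot1l in Csk(f/f), and Suz12 and Ep300 there met at 10.5 FPKM. In Csk(+/+) they overlapped for Eed with Hdac3, Hdac3 with Ezh2, Suz12 with Dot1l and Dot1l with Ep300.

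The genes with the pattern most like each regulator were sought among 6850 tested genes with a mean of at least 5 FPKM, by the root mean square difference of log2 values centred on each gene's mean over the 5 libraries. For Ezh2 they were Asf1a, a histone chaperone, at 0.042, Thoc1 at 0.048 and Dld at 0.048, where the spread of Ezh2 itself was 0.44. Asf1a had 10.5 and 7.79 FPKM in Csk(f/f) libraries, against 18.8, 13.5 and 19.6 FPKM in Csk(+/+) libraries, low in the same Csk(+/+) replicate 2 as Ezh2. For Suz12 they were Kpna3, Cul4b and Qk, at 0.033 to 0.037, and for Eed Hnrnpm, Epb4.1l2 and Nup107, at 0.024 to 0.044. The 3 nearest genes of each PRC2 gene were thus different ones. For Crebbp they were Trim56, Mtmr12 and Rnf145, at 0.032 to 0.061, and for Dot1l Sppl3, Syvn1 and Mlxip, at 0.022 to 0.035. Among the regulators themselves the closest pairs were Ep300 with Kdm1a, at 0.14, Ezh2 with Suz12 and Crebbp with Ep300, both at 0.18.

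Genes that these regulators are known to control in germinal centre B cells were described last. PRC2 silences the cell cycle inhibitor gene Cdkn1a, which had 5.73 and 6.56 FPKM in Csk(f/f) libraries, against 10.7, 8.59 and 8.08 FPKM in Csk(+/+) libraries (log2 fold change -0.50, limma adjusted p = 0.209, and -0.70 after the GC correction). Its mean was thus lower, as was that of Ezh2. The other listed cell cycle inhibitor genes did not share one direction. Log2 fold changes were 0.32 for Cdkn2a, -0.48 for Cdkn1b and -0.12 for Cdkn2c. After the GC correction they were -0.0033, -0.13 and -0.42. Prdm1, the plasma cell regulator that PRC2 and BCL6 hold back, stayed under 0.5 FPKM in every library. Irf4, which rises on the way to plasma cells, had 13.2 and 17.3 FPKM in Csk(f/f) libraries, against 12.1, 13.1 and 7.20 FPKM in Csk(+/+) libraries (limma adjusted p = 0.303). The log2 fold change of Irf4 was 0.49 as deposited and 0.61 after the GC correction (limma adjusted p = 0.448 after it).

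CREBBP and EP300 sustain the enhancers of MHC class II genes that BCL6 and HDAC3 oppose. Their master regulator Ciita had 158 and 190 FPKM in Csk(f/f) libraries, against 151, 166 and 99.6 FPKM in Csk(+/+) libraries (limma adjusted p = 0.368). The class II gene H2-Ab1 had 6174 and 5718 FPKM in Csk(f/f) libraries, against 3886, 4430 and 5716 FPKM in Csk(+/+) libraries. Its log2 fold change was 0.36 as deposited (limma adjusted p = 0.424) and 0.075 after the GC correction. The correction did not act alike on the listed class II genes. It took H2-Aa from 0.28 to 0.47, H2-Eb1 from 0.35 to 0.24 and H2-DMa from 0.42 to 0.19. Cd74 of the same list went from 0.34 to 0.068. Cd40, the receptor for T cell help, averaged 108 ± 2.38 FPKM in Csk(f/f) and 88.9 ± 3.05 FPKM in Csk(+/+) libraries (SD, n = 2 and n = 3, limma adjusted p = 0.230). The log2 fold change of Cd40 was 0.27 as deposited and 0.33 after the GC correction. Cd86 averaged 60.2 ± 4.63 FPKM in Csk(f/f) and 76.6 ± 3.66 FPKM in Csk(+/+) libraries (limma adjusted p = 0.196), and its log2 fold change was -0.34 as deposited and 0.0039 after the GC correction. Over the 14 tested genes of this list 0 passed by limma, and at an unadjusted p under 0.05 there was 1 in the higher direction and 2 in the lower, where 8.07% and 13.6% of all tested genes had one. After the GC correction 2 were higher and 2 lower at an unadjusted limma p under 0.05. Of all genes with a GC value 9.96% had one in either direction. Bcl6 itself, the repressor that recruits several of these complexes, averaged 57.4 FPKM in Csk(f/f) and 72.3 FPKM in Csk(+/+) libraries (limma adjusted p = 0.274).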

How the data were processed

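Total RNA was isolated in TRIzol, and NEBNext Ultra libraries were prepared, per the labels' protocols. The deposited values are FPKM per gene, 1 column per library, and the submitters' processing notes name TopHat2 2.0.8, Cufflinks 2.1.1 and mm9. The annotation used and any scaling between libraries are not given in the sources used here. A repeated header line was left out.

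The 10242 genes that reached 1 FPKM in 2 or more libraries were compared as log2(FPKM + 1), Csk(f/f) minus Csk(+/+), by limma 3.58.1 (R 4.3.3). The prior variance followed a trend on level, p-values were adjusted over all tested genes by the Benjamini-Hochberg method, and the threshold was 0.05. The fit was tested on simulated data. Whether same-group libraries came from separate mice is not stated beyond the word biological, and p-values measure the spread between these libraries. Ratios were tested by exact permutation. GC content and length came from the longest GENCODE transcript by gene name (98.8% of tested genes matched), and the GC correction subtracted a lowess trend (span 0.3) from each library. Chromosomal sequences are RefSeq GRCm38.p6, found for 8 of the 9 regulators. The deposited table carries no coordinates. Depth was estimated from genes with transcripts of at least 1500 nt.

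The regulators, the gene lists and the tests were chosen with earlier results of these data known. Named genes are the 9 regulators, Csk, and from each list those past the threshold or else the 3 with the smallest p. Further genes (paralogues, corepressors, class II genes, cell cycle inhibitor genes, replication genes and Bcl6) were chosen after their values were seen. A gene that the rule names is not reported here. Alternatives were pseudocounts of 0.1 and 5, other filters, rescaling, quantile normalization, other priors, library weights, the replicate number as a block, the GC correction and each library left out.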

Additional observations from a re-analysis of the deposited data

How the results depend on the processing

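The signs and calls of the 8 tested regulators were recomputed under 18 alternatives, 144 values in all, of which 135 kept their sign and their side of the threshold, 6 turned sign and 3 newly passed. Ezh2 passed with the replicate block (log2 fold change -0.70, limma adjusted p = 0.0445), and Eed passed with library weights (-0.63, 0.0392) and without Csk(+/+) replicate 3 (-0.67, 0.0471). Thus 1 regulator passed in each of these 3 settings and 0 in the others, and leaving out a library gave 0 to 1. Many more genes passed in the same 3 settings than the 8 of 10242 as deposited. There were 492 of 10242 with the replicate block, 671 of 10242 with library weights and 411 of 10147 without Csk(+/+) replicate 3. Ezh2, Eed and Suz12 were lower under every alternative, from -0.95 to -0.36, -0.69 to -0.41 and -0.93 to -0.19. Leaving out a library gave -0.95 to -0.62 for Ezh2, -0.69 to -0.41 for Eed, and -0.41 to 0.15 for Crebbp, whose sign turned without Csk(f/f) replicate 1 (0.13), Csk(+/+) replicate 1 (0.14) or Csk(+/+) replicate 2 (0.15), and with quantile normalization (0.093). Dot1l turned sign with the GC correction combined with the replicate block (-0.22) or without Csk(+/+) replicate 3 (-0.22). The difference of the Tet2 to Tet3 log2 ratios was -0.14 with a pseudocount of 1 in place of -0.84, since 1 exceeds every Tet2 value.

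Over all genes 8 passed in the comparison as deposited, 4 higher and 4 lower. There were 5 without a filter, 671 with library weights, 492 with the replicate block, 173 with the block and the GC correction, and 40 when Csk(+/+) replicate 3 was left out of the GC-corrected fit. Leaving out a library gave 5 to 411, the largest without Csk(+/+) replicate 3. The replicate numbers are known here only as numbers in the labels. Same-numbered libraries deviated from their group means with correlations across genes of -0.11 and 0.12. The 2 Csk(f/f) libraries deviate from their mean by equal and opposite amounts, so these correlations cannot decide whether libraries were paired. Csk(+/+) replicate 3 has no partner, so the block removes it from the fold change and leaves the same estimate as a fit without it. The causes of these shifts were not tested. Depth limits Tet2 most, and with 2 against 3 libraries the exact tests cannot go below 0.1.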

Other observations

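The chromosomal neighbourhood of Eed was looked at because 5 of the 8 genes that passed by limma lie on chromosome 7, as Eed does. Chromosome 7 held 771 of the 10242 tested genes. These had a median log2 fold change of 0.15 between Csk(f/f) and Csk(+/+) libraries. The 5 tested genes on either side of Eed in RefSeq order (GRCm38.p6) all had negative log2 fold changes, from -0.51 for Crebzf to -0.13 for Ctsc. Of all tested genes 51.3% had a negative one. These values are as deposited, without the GC correction. The nearest were l7Rn6 (-0.43) and 2310010J17Rik (-0.28), and the clathrin adaptor gene Picalm had -0.50. None of these 10 passed by limma, with adjusted p-values from 0.195 to 0.716, and the log2 fold change of Eed was -0.55. No test of the neighbourhood was made.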
